A study of Mus musculus with 12 samples.

Results

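Sialic acid-binding receptors (Siglecs), SIRP-type receptors and their partners in inhibitory myeloid signalling were followed in whole mouse pancreatic tumours given a CSF1R inhibitor. The 9 genes are Siglec1 (Entrez Gene 20612), Cd33 (12489), Siglece (83382), Sirpa (19261), Gm5150 (381484), Cd47 (16423), Pirb (18733), Cd200r1 (57781) and Ptpn6 (15170). Every probe annotated with one of these symbols was taken, which gave 17 of the 45281 probes on the array. They stood for 8 of the 9 genes, since no probe carried the symbol Pirb. The genes were selected on earlier results of this same comparison, so their differences are given as a description. Calls of members are counted beside the share of all genes called, and listed again for alternative processings. They are not evidence for any member.

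The CSF1Ri group held tumours of 5 mice fed a CSF1R inhibitor in chow for 8 days, and the Vehicle group tumours of 4 mice fed vehicle in chow for the same time. All were adult female C57BL/6J mice whose pancreas had been implanted surgically with syngeneic pancreatic ductal adenocarcinoma cells in Matrigel. No transgene is named for the hosts, and neither the tumour line nor the inhibitor and its dose is given in the sources used here. Mice were perfused with PBS-heparin, and the excised tissue was digested with collagenase, so each value is an average over tumour cells, stroma, immune cells and remaining pancreas. RNA was hybridised to 12 Illumina BeadArrays, and the second arrays (Hyb_B) of CSF1Ri 1, Vehicle 1 and Vehicle 3 were averaged with the first.

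Siglecs are membrane lectins that read sialic acids on neighbouring cells, and many carry cytoplasmic ITIM motifs. A phosphorylated ITIM recruits tyrosine phosphatases such as SHP-1, the product of Ptpn6, which dampen activating signals in myeloid cells. Sirpa works the same way on macrophages when it meets Cd47, the "don't eat me" protein that most cells display. Pirb, a receptor for MHC class I, and Cd200r1, the receptor for Cd200, are further brakes on myeloid cells. Tumour-associated macrophages carry several of these receptors, and their survival depends on CSF1R.

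On each array between 16219 and 17847 probes were detected, that is, had a detection p-value under 0.05, read here as a signal above the array's negative controls. Values below are normalised log2 intensities per tumour, given in the order CSF1Ri 1 to 5 and Vehicle 1 to 4, with mean ± SD (n = 5 and n = 4). A difference is the CSF1Ri mean minus the Vehicle mean, with its standard error (SE). The tissue label was checked against marker genes. Of 10 ductal and tumour epithelial markers, 9 were detected well enough to be tested, and their mean level ran from 10.9 to 11.7 in CSF1Ri and from 10.7 to 11.7 in Vehicle tumours. The mean of 8 acinar genes ran from 5.49 to 12.4 in CSF1Ri and from 9.80 to 11.9 in Vehicle tumours, so remaining acinar tissue varied widely. Among the epithelial markers Epcam was detected on no array by its brightest probe. The drug target came first. Csf1r was at 6.36, 6.02, 6.76, 6.01 and 6.06 in the CSF1Ri tumours, against 7.13, 7.42, 7.44 and 7.84 in the Vehicle tumours. The groups did not overlap, and the difference of -1.22 (SE 0.19) passed the test over all genes (limma, adjusted p = 0.0345). That call was lost on leaving out any tumour other than CSF1Ri 3 or Vehicle 1 (adjusted p up to 0.142).

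Promoter sequence was available for 6 of the 9 genes, from RefSeq on GRCm38.p6, as 250 bases before and 50 bases after a start site. The windows of Cd33 and Gm5150, the members called lower, and of Siglece, a Siglec that no probe detected, are shown to set these genes side by side. For Cd33, Gm5150 and Siglece the start used by the table lies inside the RefSeq span of the gene. Capitals mark the motif GAGGAA, or TTCCTC on the other strand, the core bound by the myeloid factor PU.1. The motif was chosen for display after values were seen.
Cd33, chr7:43533122-43533421, minus strand: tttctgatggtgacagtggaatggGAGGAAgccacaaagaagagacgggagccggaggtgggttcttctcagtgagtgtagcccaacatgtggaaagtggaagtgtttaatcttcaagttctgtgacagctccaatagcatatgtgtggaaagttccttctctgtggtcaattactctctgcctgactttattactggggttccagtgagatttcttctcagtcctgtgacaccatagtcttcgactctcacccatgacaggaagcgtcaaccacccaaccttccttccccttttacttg
Gm5150, chr3:16006283-16006582, minus strand: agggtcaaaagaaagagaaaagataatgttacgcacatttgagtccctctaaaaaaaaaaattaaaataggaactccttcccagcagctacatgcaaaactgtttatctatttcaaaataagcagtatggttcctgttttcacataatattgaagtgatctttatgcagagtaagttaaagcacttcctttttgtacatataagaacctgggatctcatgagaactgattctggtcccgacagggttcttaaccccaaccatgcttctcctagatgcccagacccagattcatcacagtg
Siglece, chr7:43660112-43660411, minus strand: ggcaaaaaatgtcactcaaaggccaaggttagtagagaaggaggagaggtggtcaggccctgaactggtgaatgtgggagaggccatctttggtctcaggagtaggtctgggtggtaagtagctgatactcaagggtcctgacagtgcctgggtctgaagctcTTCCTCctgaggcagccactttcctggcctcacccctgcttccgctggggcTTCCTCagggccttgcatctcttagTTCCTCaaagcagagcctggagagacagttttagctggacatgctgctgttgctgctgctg
The Cd33 window held 1 match, 226 bases before the start. The Gm5150 window held 0, and the Siglece window held 3, at 87, 36 and 11 bases before the start. Elsewhere, Pirb had 3 matches, and Ptpn6 and Cd47 had 0. Of all 32851 promoter windows in the RefSeq table, 28.3% held at least 1 match. A match is a string of letters and not a measured binding site, and nothing is drawn from these windows about the factor.

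Of the 6 member genes with a probe bright enough to be tested, 2 (Cd33 and Gm5150) were called lower in CSF1Ri tumours and 0 were called higher (limma, adjusted p under 0.05). Over all 9788 genes tested, 0.215% were called lower and 0% were called higher, and at an unadjusted p under 0.05 the counts were 372 lower and 365 higher. This contrast was known when the genes were picked, and Cd33 and Siglec1 reached the test only through the Vehicle tumours, where they were bright enough, so nothing is read from these counts. Without Vehicle 2 or Vehicle 3 only Cd33 was called, and without Vehicle 1 Siglec1 was called as well. The CSF1Ri and Vehicle values did not overlap for 3 member genes, all lower in CSF1Ri (Siglec1, Cd33 and Gm5150), and for 0 in the other direction. The same held for 1.42% of all tested genes in the lower direction and for 1.46% in the higher. The median difference of the 6 genes was -0.91, beside 0.01 for all tested genes. In bulk tissue, fewer cells of a type and less RNA per cell cannot be told apart.

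**Figure D1:**
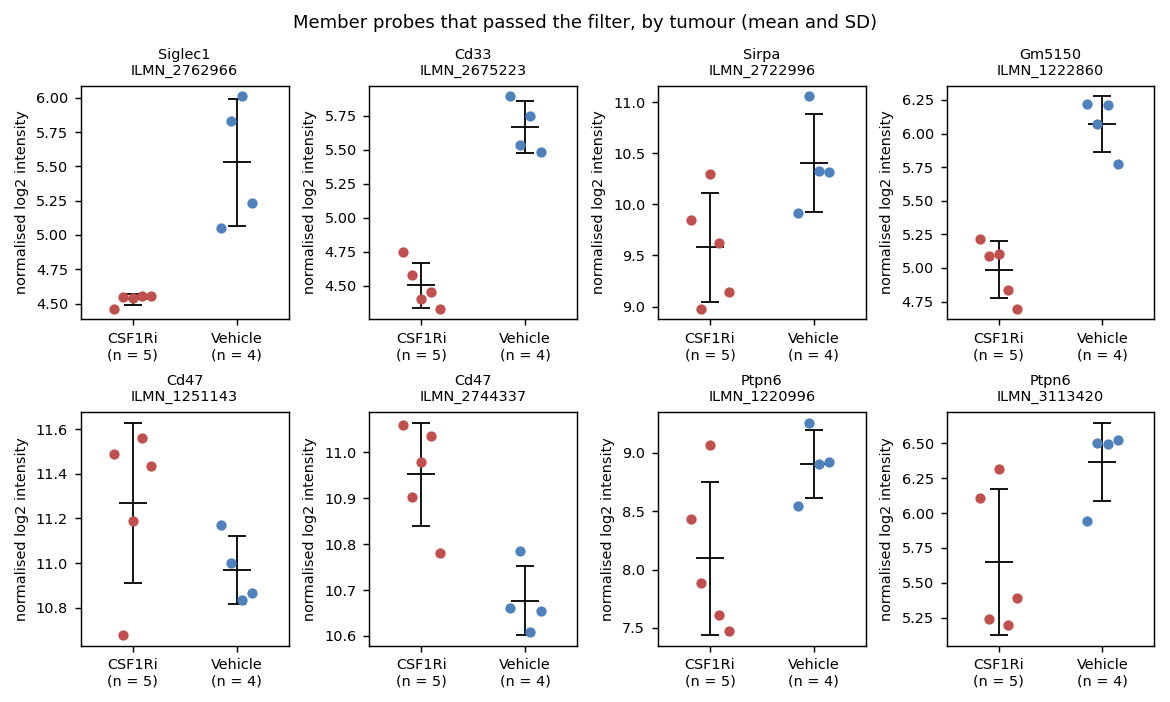
Normalised log2 intensity (vertical axes, each on its own range) of the 8 member probes that passed the detection filter, with 1 point per tumour, CSF1Ri (n = 5) left and Vehicle (n = 4) right, and bars for mean and SD. Siglec1, Cd33 and Gm5150 show 2 separate groups, Sirpa and Ptpn6 lie lower on average in CSF1Ri with overlap, and Cd47 lies higher on average with overlap.

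Among the sialic acid-binding receptors, Siglec1 and Cd33 were near or below the detection limit in CSF1Ri tumours. Both were detected on all 6 Vehicle arrays, Cd33 by only 1 of its 3 probes. Siglec1 encodes sialoadhesin, a large lectin without an inhibitory motif that marks resident macrophages, for example in lymph nodes and spleen. Its single probe (ILMN_2762966) was at 4.46, 4.55, 4.54, 4.56 and 4.55 in CSF1Ri tumours, against 5.05, 5.83, 6.01 and 5.23 in Vehicle tumours. No CSF1Ri array detected it (0 of 6, lowest detection p-value 0.114), whereas all 6 Vehicle arrays did (highest detection p-value 0.0267). CSF1Ri tumours were therefore flat at the floor, and the 4 Vehicle tumours all stood above it, Vehicle 2 and 3 further than Vehicle 1 and 4. Means were 4.53 ± 0.04 in CSF1Ri and 5.53 ± 0.46 in Vehicle, a difference of -0.999 (SE 0.19). Because the CSF1Ri level is only a bound, the fold is best given as at least 1.68-fold lower. This sets the Vehicle mean against the CSF1Ri mean of a floor, taken on each array as the lowest signal of any detected probe or, where that is greater, the Siglec1 signal itself. The deposited, unscaled intensities show the same gap, with -2.40 to 8.53 on the CSF1Ri arrays and 11.2 to 49.1 on the Vehicle arrays.

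Cd33 is a small Siglec of myeloid cells, known as an inhibitory receptor mainly from human CD33. The probe that passed the filter (ILMN_2675223) was at 4.75, 4.58, 4.40, 4.45 and 4.33 in CSF1Ri tumours, against 5.89, 5.54, 5.75 and 5.49 in Vehicle tumours. The groups did not overlap, and the gap between the nearest ones was wider than the spread within either group. It was detected on 1 of 6 CSF1Ri arrays, the second array of CSF1Ri 1 (detection p-value 0.0267), and on 6 of 6 Vehicle arrays. Means were 4.50 ± 0.16 in CSF1Ri and 5.67 ± 0.19 in Vehicle. The difference was -1.16 (SE 0.13), and because the CSF1Ri side was largely at background no fold is given. The other Cd33 probes, ILMN_2585267 and ILMN_2963320, were detected on 0 of 12 arrays, and their differences were -0.03 and -0.15. Cd33 therefore rests on 1 of its 3 probes.

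Siglece, an ITIM-bearing Siglec of mouse neutrophils, monocytes and macrophages, was not detectable. Its 3 probes (ILMN_1251152, ILMN_2599192 and ILMN_2969577) passed detection on 0 of 12 arrays. The lowest detection p-values of these probes were 0.251, 0.131 and 0.153. Their group means lay between 4.34 and 4.38 in CSF1Ri and between 4.32 and 4.42 in Vehicle, which is the floor of the scale, so no difference could be measured.

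**Figure D2:**
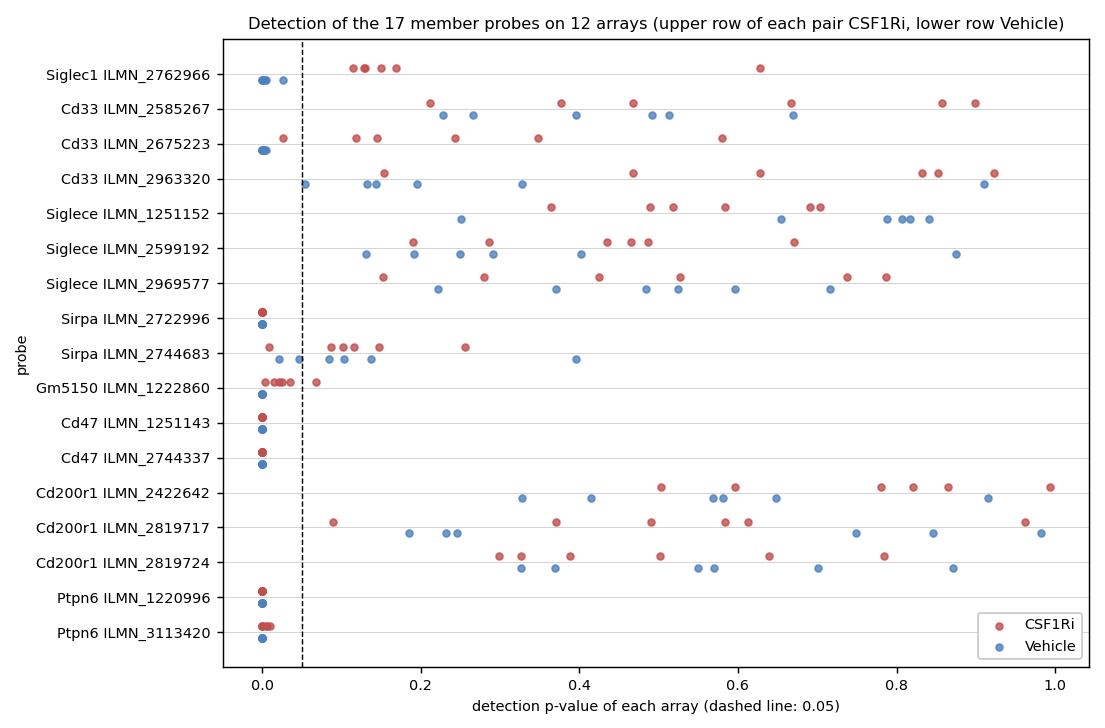
Detection p-value (horizontal axis) of each of the 17 member probes on the 12 arrays, with CSF1Ri arrays in the upper and Vehicle arrays in the lower row of each pair and a dashed line at 0.05. Siglec1 and the ILMN_2675223 probe of Cd33 lie left of the line on all 6 Vehicle arrays and on 0 and 1 of 6 CSF1Ri arrays, while the Siglece and Cd200r1 probes lie right of it on every array.

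Of the SIRP-type receptors, Gm5150 separated the groups and Sirpa did not. Sirpa encodes the inhibitory receptor for Cd47 on macrophages, dendritic cells and granulocytes, and it is also abundant on neurons. Its bright probe (ILMN_2722996), detected on 12 of 12 arrays, was at 9.85, 8.98, 10.30, 9.63 and 9.14 in CSF1Ri tumours, against 9.91, 11.06, 10.33 and 10.31 in Vehicle tumours. Vehicle 1 was the lowest Vehicle tumour and CSF1Ri 3 the highest CSF1Ri tumour, and CSF1Ri 3 lay above Vehicle 1 and close to Vehicle 3 and 4. Means were 9.58 ± 0.53 in CSF1Ri and 10.40 ± 0.48 in Vehicle, a difference of -0.82 (SE 0.29). The other Sirpa probe (ILMN_2744683) was detected on 1 of 6 CSF1Ri and 2 of 6 Vehicle arrays and showed a difference of -0.01 (SE 0.17) near the floor.

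Gm5150 is a predicted gene that RefSeq places beside Sirpb1a, Sirpb1b and Sirpb1c in GRCm38.p6, and no function is assigned to it here. Its probe (ILMN_1222860) was at 5.21, 5.09, 5.10, 4.84 and 4.70 in CSF1Ri tumours, against 6.22, 6.07, 6.21 and 5.78 in Vehicle tumours. The highest CSF1Ri tumour stayed below the lowest Vehicle tumour. It was detected on 5 of 6 CSF1Ri and 6 of 6 Vehicle arrays. Its detection p-values on the CSF1Ri arrays ran from 0.0032 to 0.0673, so that side was measured close to the detection limit. Means were 4.99 ± 0.21 in CSF1Ri and 6.07 ± 0.21 in Vehicle, a difference of -1.08 (SE 0.14), or 2.12-fold lower. Genes of the SIRP cluster are near-identical in parts, and which of them the probe also binds was not tested.

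The neighbouring Sirpb1a, an activating relative of Sirpa, was read by a different probe, whose binding to other genes of the cluster was not tested. It was at 5.64, 5.00, 5.71, 4.91 and 5.01 in CSF1Ri tumours, against 5.84, 6.58, 6.32 and 6.50 in Vehicle tumours. The groups did not overlap, although CSF1Ri 3 and Vehicle 1 nearly met. Its difference was -1.06 (SE 0.22) and did not pass the test over all genes (limma, adjusted p = 0.126). Of 10 further SIRP-type symbols, 2 were on the array and only Sirpb1a was tested, while the brightest probe of Gm1527 was detected on no array.

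Cd47, the ligand of Sirpa, was higher on average in CSF1Ri tumours, with overlap. It is displayed by nearly all cells, tumour cells included. The first probe (ILMN_1251143) was at 11.49, 10.68, 11.19, 11.56 and 11.43 in CSF1Ri tumours, against 11.17, 11.0005, 10.84 and 10.86 in Vehicle tumours. CSF1Ri 2 was the lowest of all 9 tumours, and the other CSF1Ri tumours lay above every Vehicle tumour. Its difference was 0.30 (SE 0.18). On the second probe (ILMN_2744337), CSF1Ri tumours were at 11.06, 10.90, 10.98, 11.04 and 10.78, against 10.66, 10.78, 10.61 and 10.65 in Vehicle tumours. Only CSF1Ri 5 and Vehicle 2 overlapped there, with both at 10.78 after rounding. The difference of 0.27 (SE 0.10) corresponds to 1.21-fold. Both probes were detected on 12 of 12 arrays, and the sample that stood lowest was not the same on the 2 probes.

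The remaining inhibitory receptors gave no measurement. Cd200r1 was detected on 0 of 12 arrays by any of its 3 probes (ILMN_2422642, ILMN_2819717 and ILMN_2819724), with lowest detection p-values of 0.328, 0.0887 and 0.298. Pirb was not analysed here for want of a probe under that symbol. Among its activating relatives, Pira2 was at 4.66 in CSF1Ri and 5.10 in Vehicle tumours on average, a difference of -0.44 (limma, adjusted p = 0.831). Pira2 was detected on 3 of 6 CSF1Ri and 4 of 6 Vehicle arrays, so both sides were partly at background. Probes for these clustered genes can cross-hybridise, which was not tested.

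Ptpn6, the phosphatase SHP-1 that acts downstream of most ITIM receptors in blood cells, was lower on average with overlap. Its bright probe (ILMN_1220996) was at 8.44, 7.88, 9.07, 7.61 and 7.47 in CSF1Ri tumours, against 8.54, 9.26, 8.90 and 8.92 in Vehicle tumours. CSF1Ri 3 exceeded all Vehicle tumours but Vehicle 2, while CSF1Ri 2, 4 and 5 lay well below all of them. Means were 8.10 ± 0.66 in CSF1Ri and 8.91 ± 0.29 in Vehicle, a difference of -0.81 (SE 0.30). The second probe (ILMN_3113420) was at 6.11, 5.24, 6.32, 5.20 and 5.39 in CSF1Ri tumours, against 5.95, 6.50, 6.50 and 6.53 in Vehicle tumours. The same 2 CSF1Ri tumours, 1 and 3, stood high on both probes, and the difference was -0.72 (SE 0.25). Both probes were detected on 12 of 12 arrays.

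**Figure D3:**
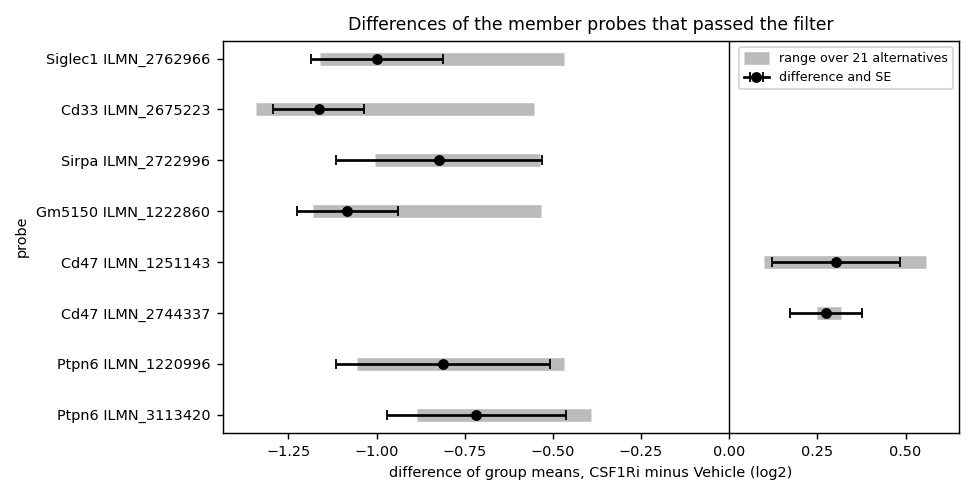
Difference of group means (CSF1Ri minus Vehicle, log2, horizontal axis) for the 8 member probes that passed the detection filter, with dots and bars for the difference and its SE and grey bands for the range over 21 alternative processings. The 6 probes of Siglec1, Cd33, Sirpa, Gm5150 and Ptpn6 lie below 0 and both Cd47 probes lie above 0 under every alternative drawn.

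The 6 measured genes varied in different ways among tumours of the same group. Deviations from the group means were correlated over the 9 tumours, as a description. The tumours were on separate arrays that differed in brightness, and the part of the arrays in these correlations was not tested. The highest values between members were r = 0.83 for Sirpa with Ptpn6 and r = 0.80 for Cd33 with Gm5150. The CSF1Ri values of Cd33 rest on a probe detected on 1 of 6 arrays, so part of its r comes from signal at background. The other pairs of members ran from -0.27 (Cd33 with Sirpa) to 0.46 (Gm5150 with Ptpn6). Among all 9788 genes, the ones most like Ptpn6 were Hvcn1 (r = 0.99), Trpv2 (0.99) and Lpxn (0.99). Sirpa was followed most closely by Ctps (0.98), Slc46a3 (0.97) and Pkia (0.97), and Cd47 by Unc5b (0.98), Yod1 (0.98) and Purb (0.98). The closest to Gm5150 were Cyb5rl (0.96), Srprb (0.95) and B3gat3 (0.93). For Cd33 they were Gca (0.91), Ywhah (0.91) and Naip2 (0.88), and for Siglec1 they were Invs (0.95), Alg8 (0.94) and Rdh11 (0.93). These are the highest values out of 9788 genes over only 9 tumours. The deviations of Siglec1 come almost entirely from the Vehicle tumours, since its SD was 0.04 in CSF1Ri and 0.46 in Vehicle.

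Repeat arrays give the technical scale of these values. Over kept probes, the median absolute difference between a tumour's 2 arrays was 0.149 to 0.187. Among the 17 member probes the largest difference was 0.578, for Ptpn6 ILMN_3113420 in CSF1Ri 1, and for Siglec1, Cd33 and Gm5150 it was at most 0.279, 0.245 and 0.253. For the Cd47 probes it was at most 0.180 and 0.228. These values give array noise only, not the variation between tumours.

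Macrophage markers were lower on average in CSF1Ri tumours, with 14 of 15 differences negative. The exception was Cd14 (difference 0.23), picked out with its value known. The mean of 15 tested macrophage markers was 7.51, 7.22, 7.77, 6.90 and 7.11 in CSF1Ri tumours, against 8.02, 8.67, 8.56 and 8.43 in Vehicle tumours. These groups did not overlap. The median difference of the 15 genes was -1.22, with 4 called lower (limma, Csf1r, Mrc1, Ms4a7 and Cx3cr1) and 0 higher, and 9 had groups that did not overlap. The mannose receptor gene Mrc1 had a difference of -1.39 (adjusted p = 0.00451), the membrane protein gene Ms4a7 of -1.54 (adjusted p = 0.0131) and the fractalkine receptor gene Cx3cr1 of -2.55 (adjusted p = 1.63e-05). Mrc1 and Cx3cr1 were called whichever tumour was left out. Cx3cr1, however, was detected on 1 of 6 CSF1Ri and 6 of 6 Vehicle arrays. It reached the test only through the Vehicle tumours, and its CSF1Ri level was largely background. With detection asked in all 9 tumours it was not tested. Ms4a7 lost its call without CSF1Ri 2, 4 or 5 or Vehicle 2, 3 or 4 (adjusted p up to 0.0759). Neutrophils, which also carry Sirpa, Ptpn6 and Siglece, were more variable. The mean of their 10 tested markers ran from 6.40 to 8.41 in CSF1Ri and from 7.38 to 9.86 in Vehicle tumours, with a median difference of -1.73. None of the 10 was called, and 7 were lower at an unadjusted p under 0.05 (limma). The neutrophil genes with the smallest p-values were Mpo (-2.78, adjusted p = 0.294), Camp (-2.74, adjusted p = 0.326) and S100a8 (-2.27, adjusted p = 0.326). Each was detected on 6 of 6 Vehicle arrays. On CSF1Ri arrays Mpo was detected on 3 of 6, Camp on 5 of 6 and S100a8 on 6 of 6. Some CSF1Ri values of Mpo and Camp therefore lay at background. In the other 12 marker lists 0 of 74 tested genes were called (3 lower and 7 higher at an unadjusted p under 0.05), with medians from -2.34 for acinar genes to 0.65 for NK cell genes. The NK value covers 3 genes and was 0.02 over all 7 on the array, without the filter on dim probes. The part of any of these cell types in the differences of the receptors was not tested.

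Genes around the same receptors gave no call in any list. Of 9 tested ligands, 0 were called in either direction (limma, with 0 lower and 2 higher at an unadjusted p under 0.05), and the median difference was 0.18. Sftpd, the lung surfactant lectin that binds Sirpa, was at 9.28 in CSF1Ri and 8.15 in Vehicle tumours on average (difference 1.12, limma adjusted p = 0.337). Thbs1, a secreted ligand of Cd47, was at 5.00 in CSF1Ri and 4.65 in Vehicle tumours (difference 0.35, adjusted p = 0.559), and its groups did not overlap. It was detected on 5 of 6 CSF1Ri but 1 of 6 Vehicle arrays. Thbs1 thus reached the test through the CSF1Ri tumours, and its Vehicle level was largely background. The MHC class I gene H2-D1, from the class of proteins that Pirb binds, was at 14.17 in CSF1Ri and 13.995 in Vehicle tumours (difference 0.18, adjusted p = 0.872).

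The machinery that makes and removes sialic acids, on which the Siglec ligands depend, showed small differences. Of its 18 tested genes 0 were called (limma, with 0 lower and 1 higher at an unadjusted p under 0.05), and the median difference was 0.04. The smallest p-values were those of the CMP-sialic acid transporter gene Slc35a1 (0.44, limma adjusted p = 0.619), the sialyltransferase gene St6galnac6 (0.24, adjusted p = 0.714) and the sialidase gene Neu1 (-0.26, adjusted p = 0.761). Of 5 tested glutaminyl cyclase and Cd47-partner genes 0 were called by either the adjusted or the unadjusted p, with a median of 0.19 (0.03 over all kept probes). They included the integrin gene Itgav (0.26, adjusted p = 0.802), Calr, which encodes calreticulin (0.30, adjusted p = 0.851), and its receptor gene Lrp1 (0.19, adjusted p = 0.939). Qpctl, which modifies Cd47 so that Sirpa can bind it, was detected on no array by its brightest probe.

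Downstream of the receptors, 19 phosphatase, kinase and adaptor genes were tested and 0 were called (limma). At an unadjusted p under 0.05, 7 were lower and 0 higher, and 16 differences were negative, with a median of -0.31. The groups did not overlap for Dok3, an adaptor that restrains immune receptors, which was at 7.40, 6.56, 7.54, 6.57 and 6.40 in CSF1Ri tumours, against 7.98, 8.59, 7.95 and 7.98 in Vehicle tumours (difference -1.23, limma adjusted p = 0.140). Nor did they overlap for Inpp5d, the lipid phosphatase SHIP1, which was at 5.17, 4.62, 5.32, 4.84 and 4.51 in CSF1Ri tumours, against 5.50, 6.43, 5.86 and 5.73 in Vehicle tumours (difference -0.99, adjusted p = 0.163). Inpp5d was detected on 4 of 6 CSF1Ri and 6 of 6 Vehicle arrays, so part of its CSF1Ri side was at background. Tyrobp, the activating adaptor DAP12 used by the Sirpb1 receptors, had a difference of -1.31 with overlap (adjusted p = 0.235). Ptpn11, which encodes the related phosphatase SHP-2 and was named with its value seen, was at 10.75 in CSF1Ri and 10.72 in Vehicle tumours (difference 0.03, adjusted p = 0.988).

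Related inhibitory receptors were lower on average without a call. Of 11 tested, 10 had negative differences, with a median of -0.30, and 4 were lower and 0 higher at an unadjusted p under 0.05 (limma). The smallest p-values belonged to Cd72, a receptor of B cells and some myeloid cells (-1.36, limma adjusted p = 0.337), the mast cell and myeloid receptor gene Milr1 (-0.63, adjusted p = 0.357) and the inhibitory Fc receptor gene Fcgr2b (-0.92, adjusted p = 0.438). Cd72 was at 6.55, 5.84, 6.72, 5.88 and 5.21 in CSF1Ri tumours, against 6.18, 8.00, 7.56 and 7.88 in Vehicle tumours, so Vehicle 1 lay inside the CSF1Ri range. Of the LILR and PIR families, Lilrb4a was at 5.61 in CSF1Ri and 6.18 in Vehicle tumours (difference -0.57, adjusted p = 0.688) and Lilra6 was at 5.24 in CSF1Ri and 5.67 in Vehicle tumours (difference -0.43, adjusted p = 0.850). Of the other Siglec family members, Mag, the myelin glycoprotein (-0.34, adjusted p = 0.888), and Cd22, the B cell Siglec (-0.16, adjusted p = 0.974), were tested and not called. Mag was detected on 3 of 6 CSF1Ri and 6 of 6 Vehicle arrays, and Cd22 on 3 of 6 and 5 of 6. By the brightest probe of each gene, Siglecf and Siglecg, typical of eosinophils and B cells, were detected on no array. By the same rule Siglech, of plasmacytoid dendritic cells, was detected on 1 of 6 CSF1Ri and 0 of 6 Vehicle arrays.

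**Figure D4:**
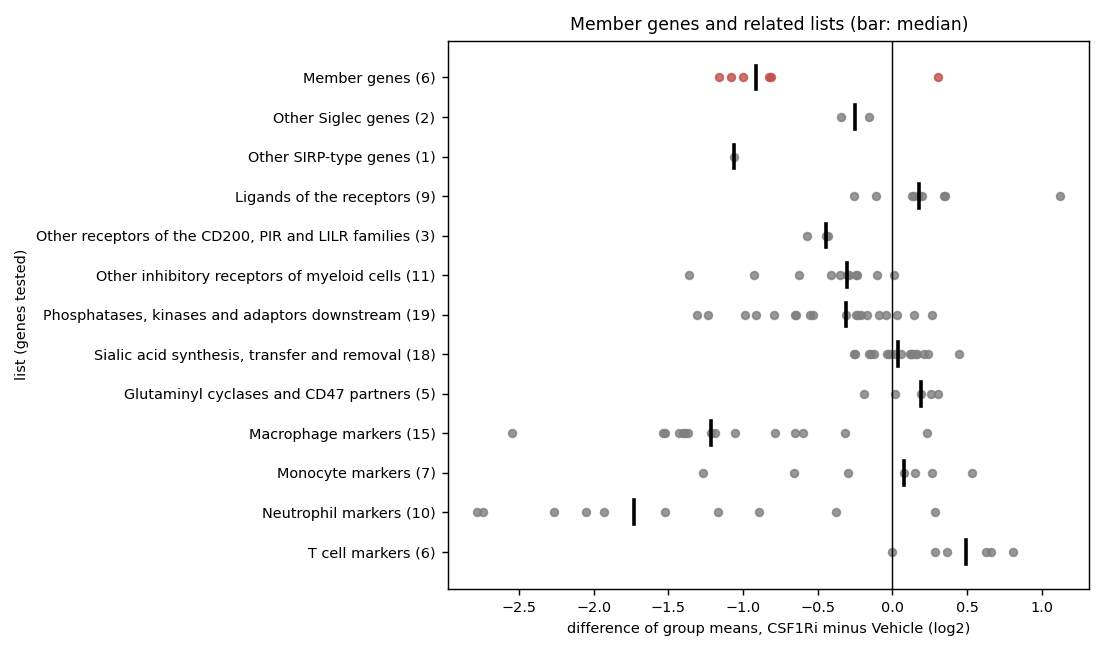
Difference of group means (CSF1Ri minus Vehicle, log2, horizontal axis) for each tested gene of the member set and of related lists (rows, with the number of genes tested), with a bar at each median. The member genes (median -0.91), macrophage markers (median -1.22) and neutrophil markers (median -1.73) lie mostly below 0. Sialic acid genes (median 0.04) and ligands (median 0.18) lie near or above 0.

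Array brightness split the samples into 2 sets, the 6 dimmer arrays (CSF1Ri 1, 2 and 3 and Vehicle 1, 2 and 3, first hybridisations) and the 6 brighter ones, each with 3 tumours of either group. For Siglec1 the difference was -1.13 in the dimmer set and -0.89 in the brighter set. The corresponding values were -1.14 and -1.21 for Cd33, -1.09 and -1.10 for Gm5150, -0.83 and -0.54 for Sirpa, and -0.47 and -0.92 for Ptpn6 on its bright probe. Cd47 was at 0.10 and 0.56 on ILMN_1251143 and at 0.32 and 0.30 on ILMN_2744337. Directions were the same in both sets for the 8 probes that passed the filter. The sets share CSF1Ri 1, Vehicle 1 and Vehicle 3, whose repeat arrays lay in the brighter set, so they are not independent. The members were also picked on this contrast over all tumours, so the shared direction is description only.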

How the data were processed

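Total RNA of 9 tumours (5 CSF1Ri, 4 Vehicle) was measured on 12 Illumina arrays. Groups came from the treatment label and tumour numbers from the titles. Titles marked Hyb_B were read as second hybridisations of the same tumour, and the tumour was the replicate.

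The deposited table pairs an intensity with a detection p-value per array, per the file headers, over 45281 probes. This deposited intensity reaches negative values and was left unscaled between arrays by the authors. A second deposited table holds the authors' processed intensity, which equals the first times 1 factor per array, from 0.672 to 1.49. Neither the software nor a genome build is given in the sources used here.

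limma 3.58.1 in R 4.3.3 was used for neqc (background from the detection p-values, offset 16, quantile normalization, log2). Probes had to be detected (p under 0.05) in 4 or more tumours, on all arrays of each, which left 16606 probes. The probe annotation gave 34885 probes 1 symbol, 18 several and 10378 none. The brightest kept probe stood for a gene, which gave 9788 genes. The comparison used lmFit and eBayes of limma and Benjamini-Hochberg adjustment over these genes, with a threshold of 0.05. The offset makes fold changes of dim probes smaller. The number of arrays limits the precision, and the pipeline was tested on simulated data.

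The members and all gene lists were chosen with earlier results of these data known. Named genes are the members, Csf1r, and, in the lists described one by one, the genes called and the 3 with the smallest p. The 3 genes most like each member by Pearson r of deviations from the group means are named too. Listed genes that few or no arrays detected, and Ptpn11, were named after values were seen. Replicate numbers are shared by the groups, and deviations of same-numbered tumours correlated between -0.09 and 0.34. With only 4 such pairs these correlations cannot exclude a pairing. The main fit did not take the numbers as pairs, and a fit with a replicate block is among the alternatives. The 21 alternatives covered normalization, background, filter, probe rule, repeat arrays, array brightness, a replicate block and each tumour left out.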

Additional observations from a re-analysis of the deposited data

Results flagged for a closer look

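A single tumour stood apart from the others of its group, by the gap to its nearest neighbour against the range of the group, for 3 member probes. The 9 probes detected on at least 1 array were checked in both groups, 18 sets of values in all, and chance alone marks about 1 in 20 such sets. Siglec1 (ILMN_2762966) was at 4.46 in CSF1Ri 1, below the next CSF1Ri tumour at 4.54, and the probe was detected on no CSF1Ri array. The dim Sirpa probe (ILMN_2744683) was at 5.31 in CSF1Ri 3, above the next at 4.66. The second Ptpn6 probe (ILMN_3113420) was at 5.95 in Vehicle 1, below the next at 6.50. The bright probes of Sirpa and Ptpn6 did not single out these tumours by the same measure.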

How the results depend on the processing

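The count of genes lower in CSF1Ri tumours, 21, became 12 without the filter on dim probes, 10 with detection asked in all 9 tumours, 42 with 12 arrays and the tumour as a random block, 45 with array brightness as a block, 1 in the dimmer and 11 in the brighter array set, and 11 to 34 on leaving out single tumours (lowest without Vehicle 2 or 3, highest without CSF1Ri 3). The count of higher genes, 0, became 2 with normexp and an offset of 50, 1 without the filter, 4 with the random block, 6 with the brightness block, and 0 to 1 on leaving out single tumours. With the replicate block, 1 gene was lower and 0 members were called. Of the same-numbered tumours 0 of 4 correlated best with each other, which does not exclude a pairing. The members called were Cd33 and Gm5150 in the main setting, joined by Siglec1 in the authors' processed values, both 12-array fits and without Vehicle 1, and only Cd33 without Vehicle 2 or 3. No member was called within either brightness set or with the stricter filter, under which only 3 members were tested. None of the 8 member probes kept by the filter changed sign under any of the 21 alternatives, whereas the dim Sirpa probe (ILMN_2744683) ran from -0.16 to 0.10. The alternatives drew on the same 9 tumours, and the members were picked on this contrast, so the kept signs are description only. Cd33 moved to -1.34 in the authors' processed values and to -0.55 with the offset of 50, where Siglec1 was at -0.47 and Gm5150 at -0.53. A larger offset shrinks log2 differences of dim probes by construction. Otherwise Sirpa ran from -1.004 to -0.54 and Ptpn6 (ILMN_1220996) from -1.05 to -0.47, and Cd47 from 0.10 to 0.56 and from 0.25 to 0.32. Of the list medians, 8 values moved by more than the spread between tumours and 453 did not. Csf1r was called in 8 of the 21 alternatives (-1.47 to -0.81). Low signal over background limits Siglec1, Cd33, Siglece and Cd200r1, and in part Gm5150. Outside the members it limits, among others, Cx3cr1, Thbs1, Pira2, Mag, Cd22, Mpo and Inpp5d.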
